A study of Homo sapiens with 4 samples.

Results

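The 10 keratin genes described here were followed across the 4 libraries of the series, chosen by name from the 26475 gene symbols that were counted. The 6 basal keratins were KRT5, KRT6A, KRT6B, KRT14, KRT16 and KRT17, and the 4 luminal keratins were KRT7, KRT8, KRT18 and KRT19. All 10 had reads well above the limit of 10 in at least 1 library that 15204 genes passed.

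RNA came from mammospheres, spheres grown in suspension, of MDA-MB-468, an established triple-negative breast cancer cell line of the basal-like subtype. CTL cells carried Cas9 and a control in place of the TCOF1 guide, and gRNA2 cells carried Cas9 and a doxycycline-inducible guide against TCOF1, the gene of treacle, a nucleolar protein of ribosomal RNA synthesis. Each was grown without doxycycline (CTL, gRNA2) or with it (CTL+dox, gRNA2+dox), and the labels call only gRNA2+dox a TCOF1 knockout and the other 3 wild type. The cells were sorted pools and not single clones, several plates were combined for each library, and there was 1 library per condition, so that no test between conditions was possible and every interval below covers counting error only.

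Keratins are the intermediate filament proteins of epithelial cells. A filament is built from pairs of 1 type I keratin (here KRT14, KRT16, KRT17, KRT18 and KRT19) and a type II partner (here KRT5, KRT6A, KRT6B, KRT7 and KRT8). In the mammary gland KRT5 and KRT14 mark the basal and myoepithelial layer, while KRT8 and KRT18, with KRT19 and KRT7, mark the luminal layer. KRT6A, KRT6B, KRT16 and KRT17 are induced in wounded or activated epithelium, and basal-like breast cancers are known for expressing basal keratins.

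The basal keratins are close in sequence to one another, and this bears on their counts, since the aligner counted only reads that map to 1 place. KRT6A and KRT6B were identical at 97.5% of the aligned coding bases, KRT6A and KRT6C at 97.9% and KRT6B and KRT6C at 98.5%. KRT14 and KRT16 were identical at 88.7%, and KRT14 and KRT17 at 85.2%. The stretches of 120 coding bases below show where the genes are most and least alike. They are taken from GENCODE transcripts on GRCh37 and run 5′ to 3′, and capitals mark the positions at which the 3 genes compared are not all the same. Within exon 1, at coding bases 148 to 267, the 3 KRT6 genes had the same letters.
KRT6A, KRT6B and KRT6C: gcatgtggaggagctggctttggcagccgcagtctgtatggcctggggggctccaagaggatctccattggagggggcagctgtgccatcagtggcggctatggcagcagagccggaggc
Their least alike stretch lay in exon 2, at coding bases 626 to 745, with 10 such positions.
KRT6A: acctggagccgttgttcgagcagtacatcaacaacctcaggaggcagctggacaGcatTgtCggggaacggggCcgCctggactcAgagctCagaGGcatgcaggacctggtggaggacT
KRT6B: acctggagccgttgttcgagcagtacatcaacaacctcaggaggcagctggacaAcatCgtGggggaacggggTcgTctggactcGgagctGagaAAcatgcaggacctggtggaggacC
KRT6C: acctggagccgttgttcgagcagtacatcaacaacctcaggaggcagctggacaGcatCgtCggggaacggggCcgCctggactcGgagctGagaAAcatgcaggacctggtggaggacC
Among the type I genes, KRT14 and KRT16 also shared a stretch letter for letter in exon 1, from coding base 341 of KRT14 and 347 of KRT16, from which KRT17 differed at 7 positions.
KRT14 and KRT16: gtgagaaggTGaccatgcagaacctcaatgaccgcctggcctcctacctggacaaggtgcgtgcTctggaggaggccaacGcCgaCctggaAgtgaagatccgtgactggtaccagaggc
KRT17: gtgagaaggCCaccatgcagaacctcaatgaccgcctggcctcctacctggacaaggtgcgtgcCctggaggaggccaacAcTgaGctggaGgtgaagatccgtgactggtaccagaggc
Their least alike stretch spanned the end of exon 1 and the start of exon 2 and held 45 such positions.
KRT14: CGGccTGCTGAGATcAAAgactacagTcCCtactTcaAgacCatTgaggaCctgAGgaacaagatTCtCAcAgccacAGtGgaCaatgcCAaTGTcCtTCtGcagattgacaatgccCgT
KRT16: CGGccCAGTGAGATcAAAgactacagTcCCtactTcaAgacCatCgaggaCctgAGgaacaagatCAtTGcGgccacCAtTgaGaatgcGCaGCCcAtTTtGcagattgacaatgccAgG
KRT17: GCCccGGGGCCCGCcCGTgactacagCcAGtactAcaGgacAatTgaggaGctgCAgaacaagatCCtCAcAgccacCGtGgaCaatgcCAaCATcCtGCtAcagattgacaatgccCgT

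Across whole transcripts, 18.2% of the 100-base windows of KRT6A and 24.4% of those of KRT6B occurred exactly elsewhere, mostly in KRT6C. The shares were 6.05% for KRT14, 7.12% for KRT16, 1.64% for KRT5 and 0.353% for KRT17, and KRT19 shared no window. KRT8 shared 8.55% of its windows, with processed copies elsewhere in the genome. KRT7 shared 8.32% with its antisense gene KRT7-AS, and KRT18 shared 18.5% with transcripts of KRT8, in both cases with a gene on the other strand at the same place. Reads that map equally well elsewhere in the genome were lost from these genes in every library. The read length was not given in the sources used here, so the share of reads lost cannot be told from these windows.

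On GRCh38.p14 the type II genes lie on chromosome 12, with KRT5 at chr12:52514575-52520394, KRT6A at chr12:52487176-52493257, KRT6B at chr12:52446651-52452146 and KRT7 at chr12:52233243-52255853. KRT8, at chr12:52897191-52949860, and the type I gene KRT18, at chr12:52948855-52952906, overlap at their ends. The other type I genes lie on chromosome 17, with KRT14 at chr17:41582279-41586895, KRT16 at chr17:41609778-41612767, KRT17 at chr17:41619442-41624575 and KRT19 at chr17:41523617-41528308.

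Counts on genes ran from 19960644 to 26322847 per library. Reads on TCOF1 itself numbered 1019 in CTL cells and 754 in CTL+dox, then 1318 in gRNA2 cells and 437 in gRNA2+dox, or 49.9, 33.5, 50.6 and 20.0 CPM (counts divided by the TMM-normalized library size). It was thus lowest in the knockout library, and it was also lower in CTL+dox than in CTL. The RNA of an edited gene can persist, so this checks the label without measuring the protein. ESR1, the oestrogen receptor, had at most 13 reads and PGR, the progesterone receptor, at most 7, while EGFR, a receptor high in basal-like tumours, had 54707 to 84853 reads. TP63, a transcription factor of basal epithelium, had only 11 to 33 reads and SOX10, another marker of basal-like tumours, at most 3. Of 16 white blood cell markers 8 had at most 3 reads in every library, among them PTPRC and CD3D, and the list summed to 160 to 189 CPM. Of 12 fibroblast and endothelial markers 4 had at most 3 reads in every library, and the list summed to 33.6 to 42.1 CPM. The most abundant of the first list were CD68, a lysosomal protein of macrophages and other cells, with 1905 to 3036 reads, CSF1R with 1011 to 1433 and CD14 with 233 to 280, and of the second COL1A1 with 358 to 543, KDR with 257 to 337 and PDGFRA with 35 to 88. The part of these genes in the keratin values was not tested.

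The 10 keratins together made up 2.69% of all counts on genes in CTL cells and 2.77% in CTL+dox, then 2.51% in gRNA2 cells and 2.75% in gRNA2+dox. Levels of different genes are compared here as CPM per kilobase of transcript, averaged over the 4 libraries. These levels were not corrected for reads lost to repeated windows, which made up 18.2% of the windows of KRT6A, 24.4% of KRT6B and 0% of KRT19. KRT17, a type I keratin of activated epithelium, was the highest at 4121 CPM per kilobase (3951 to 4394), rank 4 among 20676 genes with a known length. KRT19, the type I keratin of ductal epithelium, followed at 2235 (2118 to 2359), and KRT6A at 2161 (2095 to 2315). The ranges of KRT19 and KRT6A overlapped across libraries, while within each of the 4 libraries KRT19 was the higher. With lost reads not corrected for, the order of KRT19 and KRT6A is uncertain. KRT5 stood at 1693 (1483 to 1871) and KRT16 at 1547 (1343 to 1732), again with overlapping ranges and with KRT5 the higher in each library. KRT6B at 894 (820 to 992) overlapped KRT14 at 852 (713 to 945), and KRT14 overlapped KRT8 at 726 (643 to 823). In both of these pairs the order in gRNA2+dox was the opposite of that in the other 3 libraries, with KRT14 the lower. KRT7 at 556 (521 to 604) and KRT18 at 331 (294 to 367) were the lowest of the 10, and each was separated from the gene above it. Even KRT18 ranked 163 among all genes with a length.

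**Figure D1:**
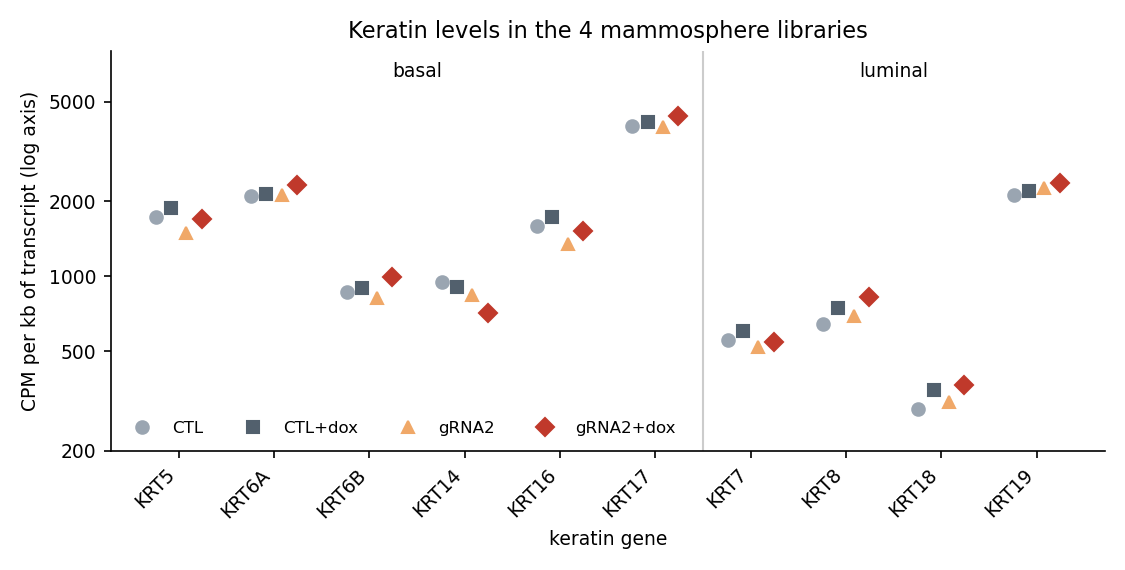
Level of each keratin in CPM per kilobase of transcript on a log axis, with 1 symbol per library, the 6 basal keratins left of the line and the 4 luminal keratins right of it. KRT17 lies highest, between 3951 and 4394, and KRT14 is the only one of the 10 whose gRNA2+dox symbol lies below its other 3.

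Basal keratins outnumbered luminal keratins in every library. Of the reads on the 10 genes, the 6 basal genes took 79.5% in CTL (exact Clopper-Pearson 95% interval 79.4% to 79.6%), 78.8% in CTL+dox, 77.6% in the gRNA2 library (77.5% to 77.7%) and 78.0% in gRNA2+dox (77.9% to 78.1%). Both gRNA2 libraries were thus slightly below both CTL libraries, whether or not doxycycline was given. Counted per kilobase the basal share was 75.7%, 75.0%, 73.5% and 74.0% in the same order. Type II keratins summed to 0.657 of the type I keratins per kilobase in CTL cells and 0.670 in CTL+dox, then 0.645 in gRNA2 cells and 0.682 in gRNA2+dox. The shares and sums per kilobase were likewise not corrected for reads lost to repeated windows. Most of the basal reads came from the activation keratins KRT6A, KRT6B, KRT16 and KRT17. In CTL cells KRT5 took 14.6% and KRT14 5.87% of the reads on the 10 genes, against 20.5% for the 4 luminal genes. In gRNA2+dox these shares were 13.6%, 4.17% and 22.0%.

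The question of the study was what loss of TCOF1 does to these mammospheres, and for the keratins the differences between libraries were small. In gRNA2+dox against gRNA2, none of the 10 keratins differed by 2-fold, where 3.46% of all tested genes did, and none by 1.5-fold, where 9.30% did. Against CTL+dox, again none passed 2-fold (5.14% of all genes) or 1.5-fold (12.5%). The same held for CTL+dox against CTL, where 3.16% and 8.40% of genes passed 2-fold and 1.5-fold, and for gRNA2 against CTL, where 3.51% and 9.63% did. Most of the genes past these folds had few reads. Among the 7527 genes that reached 500 counts in some library, which include all 10 keratins, 0.478%, 1.61%, 0.146% and 0.399% passed 1.5-fold in the 4 comparisons in the same order. A keratin count of 0 therefore does not set them apart from other abundant genes.

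KRT14, the type I partner of KRT5 in basal cells, was the only one of the 10 lower in gRNA2+dox than in each other library. It had 31565 reads in CTL cells and 33319 in CTL+dox, then 36001 in gRNA2 cells and 25465 in gRNA2+dox, or 1546, 1479, 1382 and 1166 CPM. The knockout library was lowest and the CTL library highest, with gRNA2 between CTL+dox and gRNA2+dox. The log2 ratio of gRNA2+dox was -0.25 against gRNA2 (counting interval -0.27 to -0.22), a difference of -15.6%. Against CTL+dox it was -0.34 (-0.37 to -0.32), a difference of -21.2%. Of the 7527 genes with at least 500 counts, 4.66% had a lower ratio than KRT14 against gRNA2 and 3.37% against CTL+dox, or 351 and 254 genes. In bulk RNA, fewer KRT14-positive cells and less KRT14 RNA per cell cannot be told apart, for this gene or the others. In the comparisons without the knockout library the KRT14 log2 ratio was -0.06 for CTL+dox against CTL and -0.16 for gRNA2 against CTL.

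KRT5, the type II keratin of basal cells, did not follow its partner. It had 78551 reads in CTL cells and 94303 in CTL+dox, then 86469 in gRNA2 cells and 83156 in gRNA2+dox, or 3846, 4186, 3319.6 and 3807 CPM. It was lowest in gRNA2 and highest in CTL+dox, so that the knockout library lay between its 2 references, with a log2 ratio of 0.20 against gRNA2 and -0.14 against CTL+dox.

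KRT16, a type I keratin of activated epithelium, had 53991, 64701, 58008 and 54935 reads in CTL, CTL+dox, gRNA2 and gRNA2+dox, or 2644, 2872, 2227 and 2515 CPM. Its order of libraries was that of KRT5 at both ends, lowest in gRNA2 and highest in CTL+dox. Its log2 ratio was 0.18 for gRNA2+dox against gRNA2, -0.19 when set against CTL+dox, and -0.25 for gRNA2 against CTL. That last ratio, between cell pools that had no doxycycline, was further from 0 than either ratio of the knockout library.

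The remaining activation keratins were highest in gRNA2+dox. KRT6A, a type II keratin, had 98750 reads in CTL cells and 110662 in CTL+dox, then 126681 in gRNA2 cells and 116688 in gRNA2+dox, or 4836, 4913, 4863 and 5343 CPM. The 3 other libraries lay close together, with a log2 ratio of 0.02 for CTL+dox against CTL and 0.01 for gRNA2 against CTL, both of which turned negative with total counts as the scaling. That ratio of gRNA2 against CTL lay within counting error, which no other of the 40 ratios of the 10 keratins did. gRNA2+dox was higher than gRNA2 by 0.14 and than CTL+dox by 0.12 on the log2 scale.

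KRT6B, the near copy of KRT6A, had 40762, 46595, 49187 and 49851 reads in the same order, or 1996, 2069, 1888 and 2283 CPM. Its log2 ratio of 0.27 in gRNA2+dox against gRNA2 (0.26 to 0.29) was the largest of the 10, a difference of 20.9%, and 97.3% of the 7527 genes had a lower ratio. Against CTL+dox the ratio was 0.14. KRT17 had 123805, 141501, 156109 and 145585 reads, or 6062, 6282, 5993 and 6666 CPM. Its log2 ratio was 0.15 against gRNA2 and 0.09 against CTL+dox, and the 3 libraries other than the knockout lay within 0.07 of each other on the log2 scale.

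KRT8 and KRT18, the pair of simple epithelia, were higher with doxycycline in both cell pools. KRT8 had 23423 reads in CTL cells and 29871 in CTL+dox, then 32274 in gRNA2 cells and 32073 in gRNA2+dox, or 1147, 1326, 1239 and 1469 CPM. Its log2 ratio with doxycycline was 0.21 in CTL cells (0.19 to 0.23) and 0.25 in gRNA2 cells (0.22 to 0.27). KRT18 had 8482, 11111, 11561 and 11331 reads, or 415, 493, 444 and 519 CPM. Its log2 ratio with doxycycline was 0.25 in CTL cells (0.21 to 0.29) and 0.23 in gRNA2 cells (0.19 to 0.26). Both genes were lowest in CTL and highest in gRNA2+dox, and the CTL cells, which carry no TCOF1 guide, differed with doxycycline about as much as the gRNA2 cells did.

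KRT19, a type I keratin without the usual tail, had 60108, 68795, 82015 and 71601 reads, or 2943, 3054, 3149 and 3278 CPM. It was the least variable of the luminal keratins, with log2 ratios from 0.05 to 0.10 in all 4 comparisons. KRT7, a type II keratin of ductal epithelium, had 18375, 22118, 22071 and 19326 reads, or 899.8, 982, 847 and 885 CPM. Like KRT5 and KRT16 it was lowest in gRNA2 and highest in CTL+dox, with log2 ratios of 0.06 for gRNA2+dox against gRNA2 and -0.15 against CTL+dox.

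**Figure D2:**
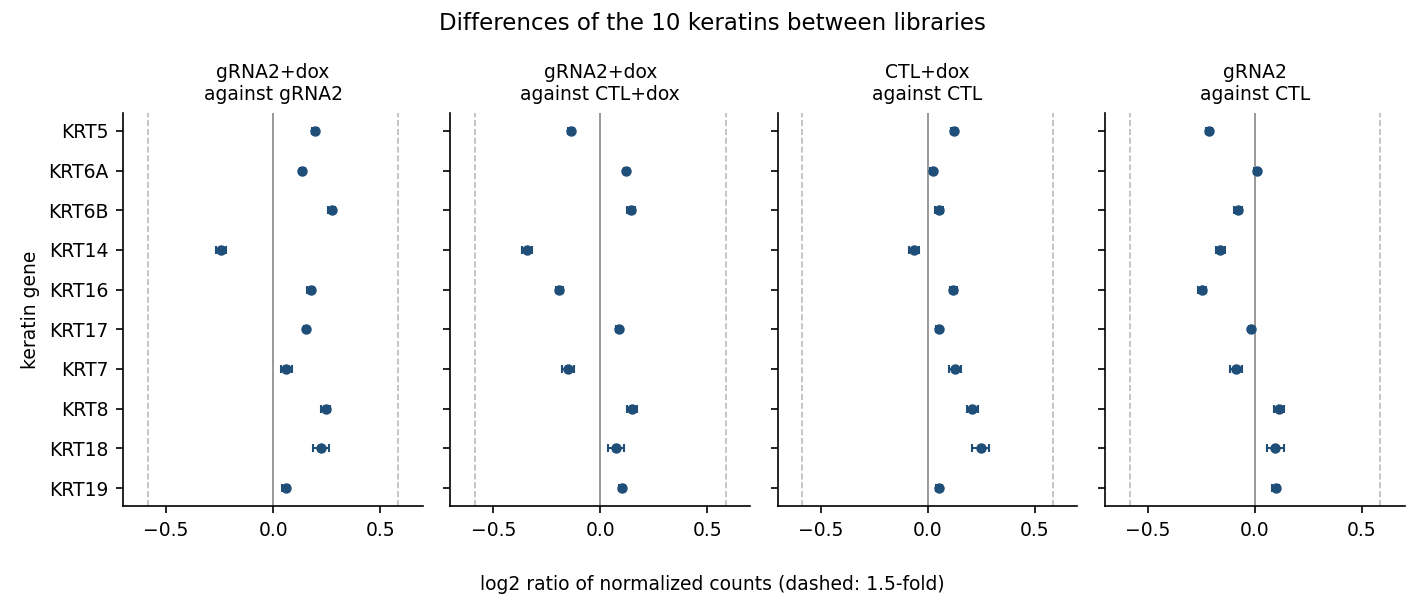
Log2 ratio of normalized counts of each keratin in the 4 comparisons, with 95% counting intervals as bars and 1.5-fold as dashed lines. KRT14 lies lowest in both comparisons of gRNA2+dox, at -0.25 and -0.34, and none of the 40 points reaches a dashed line.

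Read as groups, 9 of the 10 keratins were higher in gRNA2+dox than in gRNA2 (45.8% of all tested genes were), and 6 of 10 were higher than in CTL+dox (50.2% of all genes). For CTL+dox against CTL 9 of 10 were higher (52.3%), and for gRNA2 against CTL 4 of 10 (55.5%), counts that were 8 and 3 with total counts as the scaling. The median log2 ratio of the 10 was 0.16, 0.08, 0.09 and -0.05 in these 4 comparisons, while over all tested genes it was -0.02, 0.00, 0.01 and 0.03. The comparisons share libraries, so these counts are not independent of each other. Each library enters 2 of the 4.

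The summed basal keratins were 20930.1 CPM in CTL cells and 21801 in CTL+dox, then 19674 in gRNA2 cells and 21779.8 in gRNA2+dox. Their log2 ratio was 0.147 for gRNA2+dox against gRNA2 but -0.001 against CTL+dox (-0.007 to 0.004), which is within counting error. The summed luminal keratins were 5405, 5855, 5679 and 6151 CPM, with log2 ratios of 0.115 against gRNA2 and 0.071 against CTL+dox. In CTL cells doxycycline went with a ratio of 0.115 for the luminal sum and 0.059 for the basal sum. The basal sum of gRNA2+dox thus differed from that of gRNA2 and not measurably from that of CTL+dox.

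The difference with doxycycline in gRNA2 cells minus that in CTL cells sets the cells with the TCOF1 guide against those without it. It was -0.18 for KRT14 on the log2 scale (-0.21 to -0.15) and 0.22 for KRT6B (0.20 to 0.25). It was 0.11 for KRT6A, 0.10 for KRT17, 0.08 for KRT5 and 0.06 for KRT16. For the luminal keratins it was 0.04 for KRT8, -0.02 for KRT18, 0.00 for KRT19 and -0.06 for KRT7, and the intervals of KRT18 and KRT19 held 0. Over the 7527 genes with at least 500 counts this difference had an SD of 0.184 around a median of -0.01, so KRT14 lay about as far out as 1 SD of these genes and KRT6B little further.

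Ratios of 2 keratins within a library need no scaling between libraries. Reads of KRT5 per read of KRT14, its partner, were 2.49 in CTL (2.46 to 2.52), 2.83 in CTL+dox (2.80 to 2.87), 2.40 in the gRNA2 library (2.37 to 2.43) and 3.27 in gRNA2+dox (3.22 to 3.31). The ratio was higher with doxycycline in both cell pools. Its log2 change was 0.44 in gRNA2 cells (0.42 to 0.47) and 0.19 in CTL cells (0.16 to 0.21). KRT14 reads per read of KRT16, which shares part of its sequence, were 0.585, 0.515, 0.621 and 0.464, with a log2 change of -0.42 in gRNA2 cells and -0.18 in CTL cells. Both ratios thus differed with doxycycline in both cell pools. In CTL cells the log2 ratio of KRT14 itself with doxycycline was -0.06, against 0.12 for KRT5 and 0.12 for KRT16. In gRNA2 cells these were -0.25, 0.20 and 0.18.

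KRT8 reads per KRT18 read were 2.76 in CTL cells and 2.69 in CTL+dox, then 2.79 in gRNA2 cells and 2.83 in gRNA2+dox. The log2 change of this ratio with doxycycline was 0.02 in gRNA2 cells (-0.02 to 0.06) and -0.04 in CTL cells (-0.09 to 0.01), both within counting error. For gRNA2+dox against CTL+dox it was 0.07 (0.03 to 0.12), outside counting error. KRT6A per KRT17, a pair of activated epithelium, also varied little, at 0.798, 0.782, 0.811 and 0.802. Its log2 changes with doxycycline were outside counting error, at -0.018 in gRNA2 cells (-0.033 to -0.002) and -0.028 in CTL cells (-0.045 to -0.012). KRT6A per KRT6B was 2.42, 2.37, 2.58 and 2.34.

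In other ratios both gRNA2 libraries lay on one side of both CTL libraries. KRT6A reads per KRT16 read were 1.83 in CTL and 1.71 in CTL+dox, against 2.18 in gRNA2 and 2.12 in gRNA2+dox. KRT5 per KRT17 was 0.634 and 0.666 in the CTL libraries against 0.554 and 0.571 in the gRNA2 libraries. KRT7 per KRT19 was 0.306 and 0.322 against 0.269 and 0.270. Within a pool these ratios also differed with doxycycline, by a log2 change of -0.10 in CTL cells and -0.04 in gRNA2 cells for KRT6A/KRT16 and of 0.07 and 0.04 for KRT5/KRT17. For KRT7/KRT19 the change was 0.07 in CTL cells (0.04 to 0.11) and 0.00 in gRNA2 cells (-0.03 to 0.04). A difference between the pools cannot be told apart from a difference between single libraries.

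**Figure D3:**
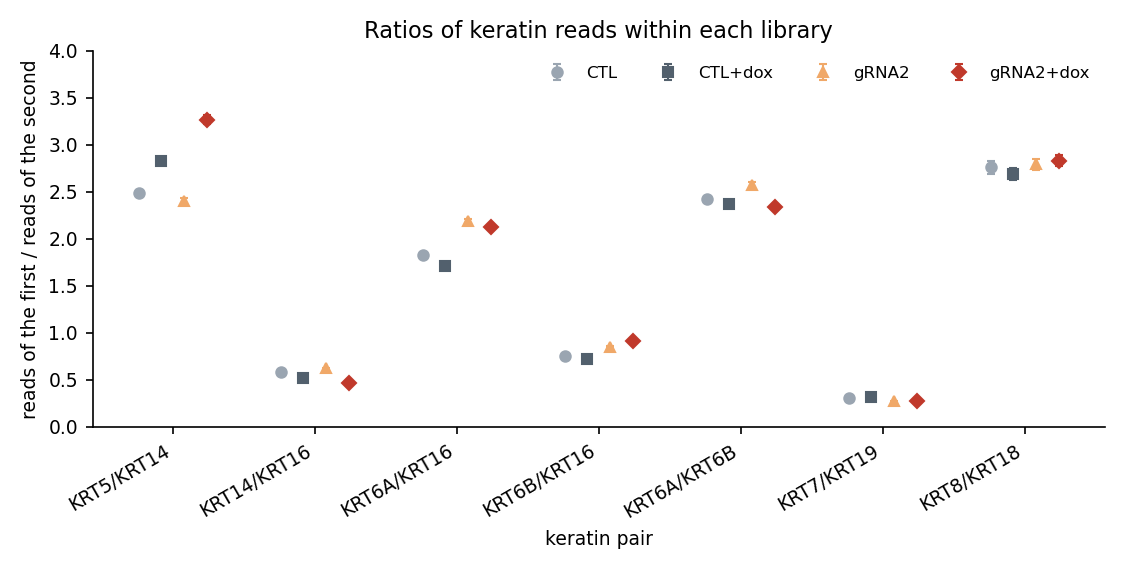
Reads of the first keratin divided by reads of the second in each library, with 95% counting intervals as bars. KRT5/KRT14 is highest in gRNA2+dox at 3.27, KRT8/KRT18 stays between 2.69 and 2.83, and KRT6A/KRT16 is higher in both gRNA2 libraries than in both CTL libraries.

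KRT8 and KRT18 lie on opposite strands with overlapping ends, and the libraries were not stranded, so reads from the overlap could be counted on neither. The strand columns show how many these were. Between the 2 genes 3772 reads were set aside in CTL cells and 4608 in CTL+dox, then 4964 in gRNA2 cells and 4472 in gRNA2+dox, taken from the difference between the strand columns and the unstranded column of KRT18. They are many beside the 8482 to 11561 reads counted on KRT18. Which gene they came from could not be told. With all of them given to KRT18 its level would be 600 CPM in CTL cells and 698 in CTL+dox, then 634 in gRNA2 cells and 724 in gRNA2+dox, and its log2 ratio would be 0.19 for gRNA2+dox against gRNA2 and 0.22 for CTL+dox against CTL. The ratio of KRT8 to KRT18 reads could be as low as 1.91 or as high as 3.21 in CTL, and 2.03 or 3.23 in gRNA2+dox. The level of KRT18 and its ratio to KRT8 are therefore known only within these bounds, while the differences between libraries kept their sign.

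**Figure D4:**
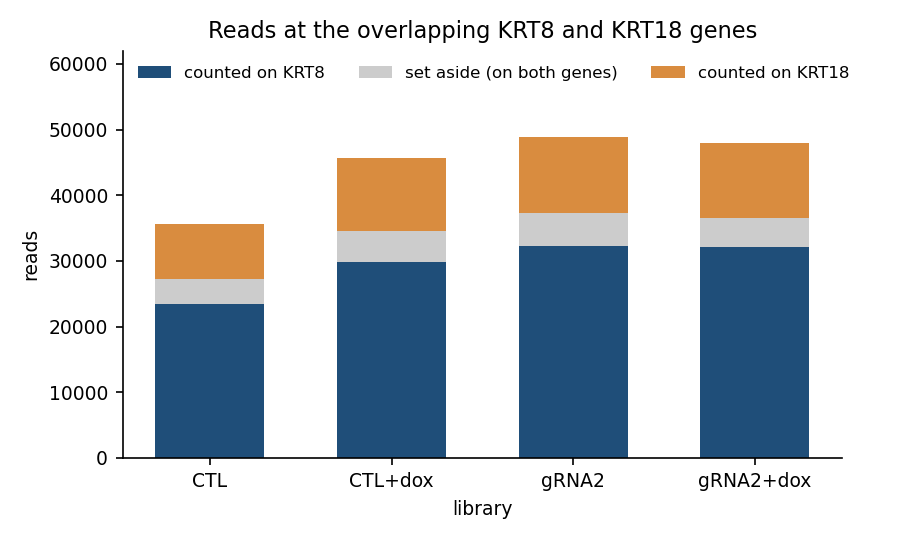
Reads counted on KRT8, reads set aside because they lie on both genes, and reads counted on KRT18, stacked for each library. The set-aside reads number 3772 to 4964 per library, beside 8482 to 11561 reads counted on KRT18.

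Of 30 other keratin genes, 19 had enough reads to be tested, and 13 of these had at least 100 reads in every library. KRT1 and KRT84 passed 2-fold higher in gRNA2+dox against both references, where 3.46% and 5.14% of all tested genes passed 2-fold in either direction. They had at most 30 and 11 reads in any library. KRT1 was also the 1 gene past 2-fold lower in CTL+dox and in gRNA2 against CTL, where 3.16% and 3.51% passed in either direction. The 3 most abundant were KRT81, a hair keratin, with 10771 to 13300 reads, KRT80 with 9793 to 12914 and KRT23 with 6909 to 10435. KRT23, a type I keratin, had 7779 reads in CTL cells and 8283 in CTL+dox, then 10435 in gRNA2 cells and 6909 in gRNA2+dox, with log2 ratios of -0.34 against gRNA2 and -0.22 against CTL+dox. KRT80 stayed within 0.07 in all 4 comparisons.

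The following keratins were singled out after their values were seen. KRT13 and KRT4, the type I and type II pair of stratified mucosa, were both lowest in gRNA2+dox. KRT13 had 640 reads in CTL cells and 796 in CTL+dox, then 852 in gRNA2 cells and 481 in gRNA2+dox, with log2 ratios of -0.57 against gRNA2 and -0.68 against CTL+dox. KRT4 had 2015, 2609, 2696 and 1746 reads, with -0.37 and -0.53. KRT10, the type I keratin of the upper epidermis, had 1037 reads in CTL cells and 1126 in CTL+dox, then 702 in gRNA2 cells and 1124 in gRNA2+dox. Here gRNA2 alone stood apart, so that KRT10 was 0.93 higher on the log2 scale in gRNA2+dox than in gRNA2 and only 0.04 higher than in CTL+dox.

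**Figure D5:**
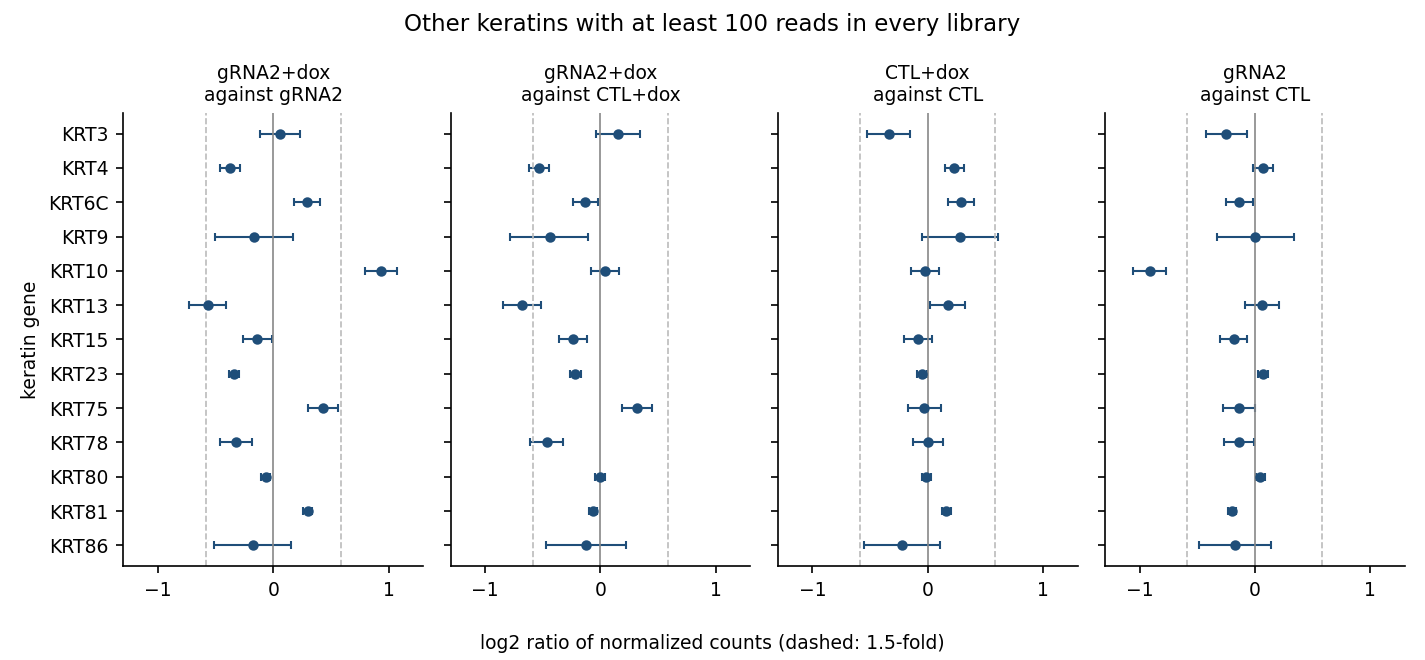
Log2 ratio of normalized counts of the 13 other keratins that had at least 100 reads in every library, in the 4 comparisons, with 95% counting intervals as bars and 1.5-fold as dashed lines. KRT13 and KRT4 lie left of 0 in both comparisons of gRNA2+dox, and KRT10 lies far from 0 only where gRNA2 is compared.

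Genes whose products anchor keratin filaments came in 2 lists. Of 15 tested genes of desmosomes and plakins, 0 passed 2-fold in any comparison, where 3.16% to 5.14% of all tested genes did. At such shares a count of 0 in a list this short does not set it apart. The medians were -0.03 against gRNA2 and -0.05 against CTL+dox. DSP, desmoplakin, which ties keratins to desmosomes, had 32209 to 45039 reads and log2 ratios of -0.03 and 0.28. JUP, plakoglobin, had ratios of -0.05 and 0.19, and PERP, a desmosomal membrane protein, 0.05 and -0.23. Of 12 genes of hemidesmosomes and the basement membrane, which hold basal cells to their matrix, 0 passed 2-fold (3.16% to 5.14% of all tested genes). The medians were 0.04 and 0.14. Against CTL+dox 10 of the 12 were higher (50.2% of all genes), and against gRNA2 8 of 12 (45.8%). DST, a plakin of hemidesmosomes named after its values were seen, had 2846, 2163, 4057 and 3188 reads in the 4 libraries, lowest in CTL+dox. It was the 1 gene of the list past 1.5-fold, with a log2 ratio of 0.60 against CTL+dox (12.5% of all tested genes passed there) and -0.09 against gRNA2. ITGB4, the integrin of hemidesmosomes, had ratios of -0.15 and 0.05, PLEC, plectin, 0.27 and 0.23, and LAMB3, a laminin chain, 0.34 and 0.29.

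Of the 18 genes of squamous differentiation, 3 had a higher level in gRNA2+dox than they had in CTL+dox (50.2% of all genes), with a median of -0.32. In CTL+dox against CTL 16 of 18 were higher (52.3% of all genes), with a median of 0.30. Both comparisons share CTL+dox, so that library alone may carry both, and against gRNA2 the median was -0.04. PI3, elafin, had 39474 reads in CTL cells and 49920 in CTL+dox, then 48381 in gRNA2 cells and 37393 in gRNA2+dox. KLK5, a protease of the cornified layer, had 95550, 117645, 122134 and 99997 reads, and SPRR1B, a cornified envelope protein, 13905, 19750, 22154 and 18117. After scaling for depth, the log2 ratio of gRNA2+dox against CTL+dox was -0.37 for PI3, -0.19 for KLK5 and -0.08 for SPRR1B. Against gRNA2 it was -0.12, -0.03 and -0.04. For gRNA2 against CTL the ratios were -0.06, 0.00 and 0.32. FLG, filaggrin, which bundles keratins, had 25, 34, 83 and 53 reads and a log2 ratio of 1.36 for gRNA2 against CTL. It was the 1 gene of the list past 2-fold there (3.51% of all tested genes). KRTDAP, with 27, 44, 25 and 9 reads, was the 1 gene past 2-fold lower in gRNA2+dox against each reference. Of all tested genes 3.46% passed 2-fold in either direction against gRNA2 and 5.14% against CTL+dox.

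Among markers of basal breast cells, 12 of 16 were tested, with medians of -0.05 against gRNA2 and 0.02 against CTL+dox. EGFR had log2 ratios of 0.05 and 0.46, SOX9 of 0.01 and 0.25 and TRIM29 of -0.02 and 0.11. The 1 gene past 2-fold in some comparison (3.16% to 5.14% of all tested genes in each), NGFR, had at most 16 reads. Among luminal markers 21 of 24 were tested, with medians of -0.05 and -0.04. XBP1, EHF and EPCAM, the most abundant, lay between -0.12 and 0.01 in both comparisons. ELF5, a transcription factor of luminal progenitors, had 151 reads in CTL cells and 216 in CTL+dox, then 59 in gRNA2 cells and 39 in gRNA2+dox. Both gRNA2 libraries were thus below both CTL libraries. The log2 ratio of ELF5 was -2.41 for gRNA2+dox against CTL+dox and -1.70 for gRNA2 against CTL, but -0.34 for gRNA2+dox against gRNA2. The other luminal markers past 2-fold in some comparison (3.16% to 5.14% of all tested genes in each) were ESR1, TFF1, LTF and KIT. Each had at most 31 reads in any library. KIT, with 27, 31, 20 and 3 reads, was past 2-fold lower in gRNA2+dox, at -2.31 against gRNA2 and -3.13 against CTL+dox. In the other direction, ESR1 was past 2-fold higher against gRNA2 and LTF against CTL+dox.

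Of 14 genes of other intermediate filaments 10 were tested, with medians of -0.13 against gRNA2 and -0.03 against CTL+dox. LMNA, lamin A and C, had ratios of 0.09 and 0.02, LMNB2, lamin B2, -0.08 and -0.02, and NES, nestin, -0.15 and -0.03. NEFH and DES, the 2 past 2-fold in some comparison (3.16% to 5.14% of all tested genes in each), had at most 46 and 13 reads. VIM, vimentin, the filament protein of mesenchymal cells, is named after its values were seen. It had 660 reads in CTL cells and 922 in CTL+dox, then 834 in gRNA2 cells and 560 in gRNA2+dox, far below the 10 keratins. Its log2 ratio was -0.32 against gRNA2 and -0.67 against CTL+dox.

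Of 20 regulators and partners of keratins, all tested, 0 passed 2-fold (3.16% to 5.14% of all tested genes), with medians of -0.07 and 0.08. SFN, the protein of the 14-3-3 family that binds keratins, had log2 ratios of -0.07 against gRNA2 and 0.10 against CTL+dox, TFAP2A, a transcription factor of epithelial genes, -0.16 and 0.22, and JUNB, a part of AP-1, -0.02 and 0.15.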

How the data were processed

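The authors deposited, for each of the 4 libraries, the read counts per gene that STAR made (build hg38 per the labels, annotation and version not given in the sources used here), without normalization, after adaptor trimming with fastp. The unstranded column was used, and the 2 strand columns only for overlapping genes. The lines of reads not assigned to a gene stayed out of all totals, which left 79.7% to 81.0% of the reads of each library. Counts were scaled with edgeR 4.0.16 (TMM) in R 4.3.3. Log2 ratios had 0.5 added as prior count. A gene was tested if some library held 10 or more of its reads, which 15204 did. Shares of reads, ratios of 2 keratins and log2 ratios have 95% intervals by the exact Clopper-Pearson method, computed with Python 3.11.15 and scipy 1.17.1. The log2 ratios, their intervals and the 2-fold rule were tested on counts simulated with counting error only. That check says nothing of variation between libraries. Changes of keratin ratios and differences of the doxycycline ratios have 95% intervals by a normal approximation from the counting standard error. All of these intervals cover counting error only. With 1 library per condition no p-value is given, and folds of 2 and 1.5 describe size. A level at 0 would allow up to 3 counts, 0.115 to 0.147 CPM.

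Positions came from RefSeq on GRCh38.p14, and transcripts and their lengths from GENCODE 44 lifted to GRCh37. Keratins and gene lists were chosen with earlier results of these data known. Beside the 10 keratins, the genes named were those of the lists past 2-fold with at least 50 reads, the 3 most abundant of each list, TCOF1, and the 5 genes nearest to each keratin sum in their levels over the 4 libraries. Others are named after their values were seen. The keratin ratios, their sums and the counts past a fold were recomputed, where each applies, with size factors of DESeq2 1.42.0, with totals alone, a prior count of 5, thinning to the smallest total, other filters, a 1.5-fold threshold and the summed strand columns.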

Additional observations from a re-analysis of the deposited data

Results flagged for a closer look

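KRT4 and KRT13, the pair of stratified mucosa, stood out because doxycycline went with opposite signs in the cell pools. The log2 ratio of KRT4 with doxycycline was -0.37 in gRNA2 cells and 0.23 in CTL cells. That of KRT13 was -0.57 in gRNA2 cells and 0.17 in CTL cells. With 1 library per condition these differences between the pools were not tested. The difference, gRNA2 cells minus CTL cells, was -0.60 for KRT4 and -0.74 for KRT13, and its SD over the 7527 genes that reached 500 counts in some library was 0.184.

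Reads set aside between KRT8 and KRT18 lie outside the counts used for both genes. They numbered 3772 in the CTL library, 4608 in CTL+dox, 4964 in the gRNA2 library and 4472 in gRNA2+dox. The ratio of KRT8 to KRT18 reads lay between 2.69 and 2.83 as counted, and from 1.90, with these reads given to KRT18, to 3.23, with them given to KRT8.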

How the results depend on the processing

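None of the 10 keratins passed 2-fold under any alternative, or 1.5-fold with the main settings. The 40 log2 ratios of the 10 keratins stayed within their counting intervals with a prior count of 5, thinning and the summed strand columns, 31 of 40 did so with DESeq2 size factors and 13 of 40 with total counts only, and the largest shift was 0.048. The ratio of KRT6A changed sign in gRNA2 against CTL under both of these scalings (-0.01 and -0.04) and in CTL+dox against CTL with total counts (-0.01). With DESeq2 size factors the log2 ratio of the basal sum was 0.159 for gRNA2+dox against gRNA2, 0.0468 for CTL+dox against CTL and -0.110 for gRNA2 against CTL, and that of the luminal sum 0.127, 0.103 and 0.0503. With total counts only, the basal sum gave 0.140 for gRNA2+dox against gRNA2, -0.0267 against CTL+dox, 0.0296 for CTL+dox against CTL and -0.137 for gRNA2 against CTL. The luminal sum gave 0.0457 for gRNA2+dox against CTL+dox, 0.0861 for CTL+dox against CTL and 0.0231 for gRNA2 against CTL. All of these kept their sign, but the basal sum of gRNA2+dox against CTL+dox, -0.001 and within counting error, was 0.002 with DESeq2 size factors, and the KRT18 difference with doxycycline between the pools, -0.02, was 0.001. Partner ratios, other keratins and gene lists were not recomputed. The share of all genes past 2-fold, 3.16% to 5.14% in the 4 comparisons, was 16.4% to 18.3% with no filter, 0.160% to 1.43% with at least 50 counts, 0.0133% to 0.266% with at least 500 counts and 1.16% to 2.60% with a prior count of 5. No paired analysis was possible because no condition was sequenced more than once, which also left no library to leave out. Depth limits the rare keratins: KRT1 and KRT84 had at most 30 and 11 reads.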

Other observations

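The genes whose levels over the 4 libraries lay nearest to those of the summed basal keratins were TELO2, AGO2, FAM220A, ATG16L1 and CHMP1B, among 10532 genes with at least 100 reads in every library. Their Euclidean distances in mean-centred log2 CPM were 0.0112 to 0.0196. TELO2 had 296 reads in the CTL library, 337 in CTL+dox, 355 in the gRNA2 library and 329 in gRNA2+dox. Nearest to the summed luminal keratins were LMBR1, NOL10, ATP6V1G1, BNIP2 and SLC25A43, at 0.0108 to 0.0186. Likeness over 4 libraries is a description and says nothing of shared control.

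KRT75, a type II keratin of the hair follicle, had 796, 861, 920 and 1041 reads in the CTL, CTL+dox, gRNA2 and gRNA2+dox libraries, with log2 ratios of 0.43 for gRNA2+dox against gRNA2 and 0.32 against CTL+dox. KRT78 had 917, 1013, 1062 and 710 reads, with ratios of -0.33 and -0.47. KRT6C, the third KRT6 gene, had 1088, 1468, 1264 and 1298 reads, far fewer than KRT6A or KRT6B. KRT15, a type I keratin of basal cells, had 1107, 1152, 1242 and 947 reads, with ratios of -0.14 and -0.24. These 4 keratins were chosen after their values were seen.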
